A study of Danio rerio with 6 samples.

Results

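Myosin heavy and light chain genes were examined in RNA sequencing of 3 zebrafish samples homozygous for pikfyve-delta8 and 3 wild-type samples. The members were all genes of the deposited table whose symbol names a conventional (class II) myosin heavy or light chain, 36 of 25645 genes, of which 21 encode heavy chains and 15 light chains. Pikfyve is a lipid kinase of late endosomes and lysosomes, and pikfyve-delta8 is a CRISPR/Cas9 allele reported as deficient in its phosphatidylinositol phosphate kinase domain. No further allele, transgene or treatment is named for either genotype. The labels give neither tissue nor age, and do not say whether samples came from separate animals, so the p-values cover sample-to-sample spread that may be technical.

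A conventional myosin molecule is built from a pair of heavy chains, each with an ATP-splitting motor head that pulls on actin. Each heavy chain also binds an essential and a regulatory light chain. In striated muscle, bundled heavy chain tails form the thick filament of the sarcomere, and fast, slow and cardiac fibers use different heavy and light chain genes. Non-muscle and smooth muscle myosins drive cell division, migration and contraction outside the sarcomere, and phosphorylation of their regulatory light chain switches them on.

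Total estimated counts were 14677252 to 14949605 per sample. Myosin genes took 4.24% to 4.38% of the counts in pikfyve-delta8 samples and 4.11% to 4.18% in wild-type samples. Per-sample levels are CPM, counts scaled to a common library size with TMM factors (per 1000000), and levels of different genes are compared in FPKM, which divides by transcript length. Log2 fold changes are pikfyve-delta8 minus wild type ± SE, and a gene is said to have risen or fallen where edgeR's quasi-likelihood test gave an adjusted p under 0.05 over all tested genes. TMM factors were 0.923 to 0.996 in pikfyve-delta8 samples and 1.03 to 1.07 in wild-type samples, so the scaling itself moves small differences. Over all genes, the median log2 fold change was -0.14 with library size alone, against 0.0039 with TMM. The targeted gene pikfyve stood at 61.2, 63.2 and 73.6 CPM in the pikfyve-delta8 samples, against 56.6, 53.8 and 52.1 CPM in the wild-type samples. It rose by 0.29 ± 0.087 (adjusted p = 0.0209), without overlap in CPM but with overlap in FPKM. Reads totalled over the gene cannot show whether the kinase domain is intact, so the genotype labels could not be checked.

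Most myosin genes did not pass the test. Of the 36 members, all of which passed the filter on low counts, 8 rose, 2 fell and 26 did not pass the test. That is 27.8% of members, against 48.0% of 21104 tested genes (25.1% higher and 23.0% lower). The median log2 fold change was -0.03 for the members and 0.0039 for all genes, and the median size of the change, ignoring its sign, was 0.19 and 0.38. For 32 members the log2 fold change was under 0.5 in size (88.9%, against 60.5% of all tested genes). In 15 members the genotypes did not overlap in CPM, 41.7% against 58.8% of all tested genes. Of these 11 were higher (30.1% of all tested genes) and 4 lower (28.7% of all tested genes). Under scaling by library size alone 4 members were higher (18.1% of all genes) and 8 were lower (31.1% of all genes), so the direction of small changes depended on the scaling. The genes that rose under both scalings were myh9b, mylpfa, myl9b and myl12.1, and those that fell under both were myh10 and myl4.

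**Figure D1:**
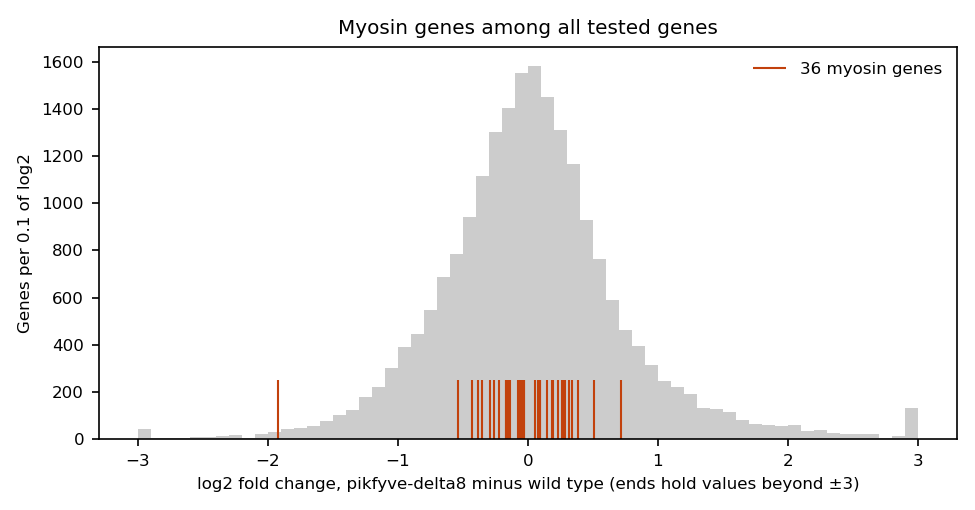
Histogram of log2 fold changes (x axis, pikfyve-delta8 minus wild type) of 21104 tested genes, with the number of genes per bin on the y axis; orange lines mark the 36 myosin genes. All but 1 of the myosin genes lie between -0.54 and 0.72, and the exception is myhc4 at -1.92.

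Levels differed widely between the genes. The most abundant transcript per length was mylpfa, at 5993 ± 490.5 FPKM in pikfyve-delta8 and 5064 ± 97.0 FPKM in wild type (SD, n = 3 each). The rarest was myh11b, at 0.167 ± 0.0862 FPKM in pikfyve-delta8 and 0.207 ± 0.0473 FPKM in wild type. In wild type 5 members reached 1000 FPKM, 14 reached 100 FPKM and 28 reached 10 FPKM. Summed over all 36 members, FPKM was 20974, 19767 and 20513 in the pikfyve-delta8 samples and 20385, 20490.2 and 19851 in the wild-type samples, so the genotypes overlapped. In TMM-scaled CPM the sums were 45273, 47010 and 44015 in the pikfyve-delta8 samples, against 38734, 39783 and 39772 in the wild-type samples, 1.15 times as high and without overlap. The lowest estimate for any member in a sample was 3.86 counts, for myhc4 in pikfyve-delta8 replicate 2. For 12 members, namely the fast and slow skeletal heavy chains, myh7, myh7l and myh9b, estimated counts were not whole, so that reads fitting several genes had been divided and their single levels are uncertain.

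**Figure D2:**
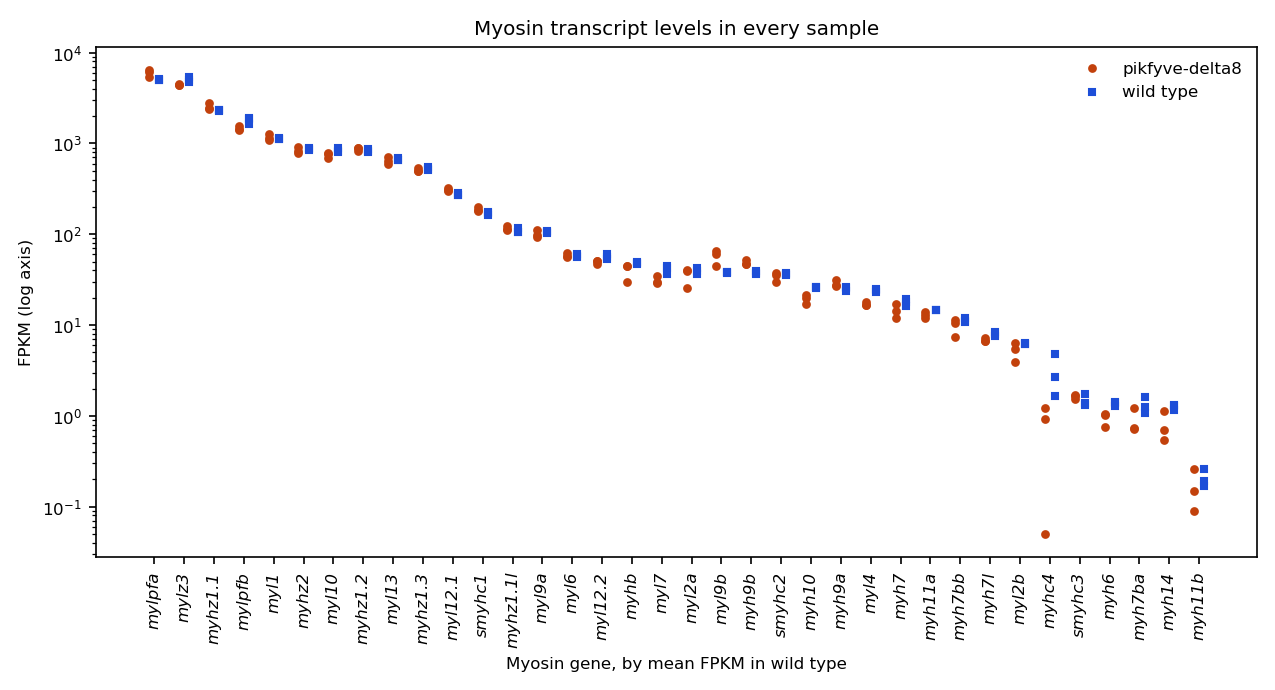
FPKM on a log axis (y) of each of the 36 myosin genes (x, ordered by mean FPKM in wild type); each circle is a pikfyve-delta8 sample and each square a wild-type sample. The widest spread is that of myhc4, which is listed between 0.05 and 1.23 FPKM in pikfyve-delta8 and between 1.66 and 4.74 FPKM in wild type.

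The fast skeletal heavy chains, the motors of the bulk of zebrafish trunk muscle, gave 2 genes that rose and 0 that fell of 6, with a median log2 fold change of 0.14. Under upper-quartile scaling and library size alone 0 of the 6 passed, with medians of 0.077 and -0.0029. The most abundant, myhz1.1, stood at 14628, 17112 and 14290.0 CPM in the pikfyve-delta8 samples, against 12396, 12629.5 and 12793 CPM in the wild-type samples. Its log2 fold change was 0.28 ± 0.09 (adjusted p = 0.0250), and every pikfyve-delta8 sample lay above every wild-type sample. The similarly named myhz1.1l stood at 674, 712 and 709 CPM in the pikfyve-delta8 samples, against 559.7, 588 and 641 CPM in the wild-type samples. It also rose without overlap, by 0.23 ± 0.078 (adjusted p = 0.0341).

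Upper-quartile scaling ended both calls (adjusted p = 0.0526 for myhz1.1 and 0.0914 for myhz1.1l), as did library size alone (0.0871 and 0.344). Without pikfyve-delta8 replicate 2, which held the highest myhz1.1 level, they were 0.0802 and 0.0618. The call of myhz1.1 was also lost without wild type replicate 1 (0.102), 2 (0.0877) or 3 (0.0853), and that of myhz1.1l without wild type replicate 1 (0.166) or 2 (0.127). On the log2(FPKM + 1) scale the log2 fold changes were 0.14 and 0.086, and neither passed.

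The other abundant genes of the class did not pass the test. For myhz1.2 the levels were 5042, 5537 and 5083 CPM in the pikfyve-delta8 samples, against 4471, 4519 and 4780.0 CPM in the wild-type samples. Its log2 fold change of 0.19 ± 0.078 did not pass the test (adjusted p = 0.0745), although the genotypes did not overlap, and it passed without pikfyve-delta8 replicate 3 (0.19, adjusted p = 0.0419). For myhz1.3 they were 3019, 3085 and 3059 CPM in the pikfyve-delta8 samples, against 2705, 2885 and 2984 CPM in the wild-type samples, a log2 fold change of 0.10 ± 0.075 (adjusted p = 0.316). The genotypes were again apart. For myhz2 they were 4827, 5059 and 5247 CPM in the pikfyve-delta8 samples, against 4610.4, 4741 and 4833 CPM in the wild-type samples, with overlapping genotypes and a log2 fold change of 0.093 ± 0.075 (adjusted p = 0.329). Library size alone put the values of myhz1.3 and myhz2 on the other side of 0, at -0.047 and -0.048. In the GRCz12tu annotation, another build than that of the files, myhz1.3, myhz1.2 and myhz1.1 follow each other without another protein-coding gene between them, as do myhz2 and myhc4.

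Summing the 6 genes sets aside how reads were divided among them, but the summed counts were whole in 0 of 6 samples, so some reads were shared with other genes and the sum is uncertain too. The sum was 4621, 5076 and 4924 FPKM in the pikfyve-delta8 samples and 4606, 4570.4 and 4778 FPKM in the wild-type samples, with overlap. On the TMM-scaled CPM scale the same sum was 1.16 times as high in pikfyve-delta8 as in wild type, and the genotypes did not overlap.

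The exception in size was myhc4, the least abundant fast heavy chain. It was estimated at 77.3, 3.86 and 102 counts in the pikfyve-delta8 samples, against 138, 228 and 397 counts in the wild-type samples. All 3 pikfyve-delta8 samples were below all 3 wild-type samples, but the pikfyve-delta8 samples differed widely among themselves. The log2 fold change of -1.92 ± 0.84 did not pass the test (adjusted p = 0.122). It passed with limma-voom (-2.64, adjusted p = 0.0328), with log2(FPKM + 1) (-1.22, adjusted p = 0.0169), with log2(FPKM + 0.1) (-2.29, adjusted p = 0.0385) and with non-robust dispersions (-1.92, adjusted p = 0.0295), and adjusted p ran from 0.0169 to 0.282 over 17 alternatives. Its counts were divided with similar genes, so this level is uncertain.

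Among the 4 fast skeletal light chain genes 1 rose, 0 fell and 3 did not pass the test, with a median log2 fold change of 0.083. The regulatory chain gene mylpfa, which encodes the fast fiber form that binds the neck of the heavy chain, stood at 7742, 6704 and 6986 CPM in the pikfyve-delta8 samples, against 5484, 5498 and 5409 CPM in the wild-type samples. It rose by 0.39 ± 0.081 (adjusted p = 0.00338), with all pikfyve-delta8 samples above all wild-type samples, and the call held in all 18 alternatives. Its paralog mylpfb stood at 791, 744 and 671 CPM in the pikfyve-delta8 samples, against 844, 858 and 743 CPM in the wild-type samples. There the genotypes overlapped and the log2 fold change was -0.15 ± 0.09 (adjusted p = 0.203). It passed as lower with library size alone (-0.29, adjusted p = 0.00964) and on both FPKM scales (adjusted p = 0.0135 and 0.0141).

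The essential chain gene mylz3 stood at 3389, 3372 and 3089.7 CPM in the pikfyve-delta8 samples, against 3269, 3628 and 3174 CPM in the wild-type samples. The genotypes overlapped, at -0.032 ± 0.084 (adjusted p = 0.778), and with library size alone the value was -0.18 (adjusted p = 0.0335). The other fast essential chain gene, myl1, stood at 1105, 972 and 949.7 CPM in the pikfyve-delta8 samples, against 890.2, 885 and 865 CPM in the wild-type samples. No sample of one genotype fell within the other, yet the log2 fold change of 0.20 ± 0.081 did not pass (adjusted p = 0.0685), except without pikfyve-delta8 replicate 3 (0.22, adjusted p = 0.0187). The 4 genes summed to 13755, 12415 and 13085 FPKM in the pikfyve-delta8 samples and to 13244, 13308 and 12531 FPKM in the wild-type samples, with overlap. On the TMM-scaled CPM scale their sum was 1.16 times as high in pikfyve-delta8 as in wild type, without overlap.

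Slow skeletal heavy chains power the superficial slow fibers of the zebrafish myotome. Of 3 genes 1 rose and 0 fell, with a median of 0.26. The main slow gene, smyhc1, stood at 1120.5, 1106 and 1144 CPM in the pikfyve-delta8 samples, against 953, 907 and 932 CPM in the wild-type samples. It rose without overlap by 0.27 ± 0.07 (adjusted p = 0.00951), but the call was lost with library size alone (0.13, adjusted p = 0.129), on both FPKM scales (adjusted p = 0.128 and 0.126) and without wild type replicate 2 (adjusted p = 0.0612) or 3 (adjusted p = 0.0534). For smyhc2 the levels were 216, 184 and 209.5 CPM in the pikfyve-delta8 samples, against 189, 199 and 198 CPM in the wild-type samples, with overlap and a log2 fold change of 0.056 ± 0.08 (adjusted p = 0.592), which was -0.086 with library size alone. The rare smyhc3, at 9.26 to 10.1 CPM in pikfyve-delta8 and 7.05 to 9.54 CPM in wild type, did not pass either (0.26 ± 0.14, adjusted p = 0.153). In the GRCz12tu annotation the 3 genes lie side by side. Slow chains made up 4.31 ± 0.335% of summed sarcomeric heavy chain FPKM in pikfyve-delta8 and 4.21 ± 0.129% in wild type (SD, n = 3 each), and fast chains 94.3 ± 0.617% and 94.0 ± 0.196%, both with overlap. Cardiac chains made up 0.431 ± 0.0471% in pikfyve-delta8 and 0.550 ± 0.0378% in wild type, lower without overlap.

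The light chain genes myl10 and myl13, whose fiber type is not assigned here, were abundant and did not pass the test. For myl10 the levels were 340.2, 303 and 309.8 CPM in the pikfyve-delta8 samples, against 307, 351 and 322 CPM in the wild-type samples, a log2 fold change of -0.041 ± 0.082 (adjusted p = 0.705). For myl13 they were 431, 372 and 367 CPM in the pikfyve-delta8 samples, against 352, 388 and 360.4 CPM in the wild-type samples, a log2 fold change of 0.088 ± 0.086 (adjusted p = 0.421). The genotypes overlapped for both genes.

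The cardiac and slow light chains gave 1 gene that fell, and the cardiac heavy chains none. Of the 3 cardiac heavy chain genes 0 rose and 0 fell (3 not past edgeR's test, 1 of them at an unadjusted p under 0.05, and 0 with DESeq2), with a median of -0.16. The counts of lower genes depended on the scaling, 1 with upper-quartile scaling and 2 with library size alone. The ventricular gene myh7, earlier named vmhc, stood at 88.0, 74.8 and 98.1 CPM in the pikfyve-delta8 samples, against 104, 89.9 and 98.4 CPM in the wild-type samples. The genotypes overlapped, at -0.16 ± 0.10 (adjusted p = 0.216), and without pikfyve-delta8 replicate 3 it was -0.28 (adjusted p = 0.0228). For myh7l, earlier named vmhcl, pikfyve-delta8 samples lay between 38.1 and 44.3 CPM and wild-type samples between 41.8 and 44.6 CPM (-0.077 ± 0.081, adjusted p = 0.458), and library size alone gave -0.22 (adjusted p = 0.0333).

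Estimated counts of myh7 and myh7l added up to whole numbers in all 6 samples, although neither was whole alone, so their shared reads had been divided between these neighbours. Their sum was 21.1, 19.1 and 23.6 FPKM in the pikfyve-delta8 samples and 27.7, 24.1 and 25.7 FPKM in the wild-type samples, without overlap. On the TMM-scaled CPM scale the sums overlapped, at 0.909 times the wild-type mean. The atrial gene myh6 was at 4.32 to 6.39 CPM in pikfyve-delta8, below all wild-type samples at 7.13 to 7.5 CPM, but did not pass the test (-0.39 ± 0.17, adjusted p = 0.0860). With library size alone it was lower (-0.53, adjusted p = 0.0215), as it was with upper-quartile scaling (-0.45, adjusted p = 0.0489).

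Of the 4 light chain genes of heart and slow muscle 0 rose and 1 fell, against 23.0% of all genes lower. The essential chain gene myl4, an atrial and embryonic form in mammals, stood at 16.6, 18.0 and 15.8 CPM in the pikfyve-delta8 samples, against 21.9, 21.9 and 20.4 CPM in the wild-type samples. It fell by 0.35 on the log2 scale (SE 0.10, adjusted p = 0.0143) and the genotypes did not overlap. Leaving out wild type replicate 1 (adjusted p = 0.0562) or 2 (adjusted p = 0.0575) ended the call, which does not pass a threshold of 0.01 either. For myl7, the cardiac regulatory chain used as a heart marker in zebrafish, the levels were 27.9, 23.7 and 22.9 CPM in the pikfyve-delta8 samples, against 29.8, 26.8 and 32.6 CPM in the wild-type samples. The genotypes overlapped and the log2 fold change of -0.26 ± 0.11 did not pass (adjusted p = 0.0751). It passed as lower in 5 of 18 alternatives, among them library size alone (-0.41, adjusted p = 0.0138), upper-quartile scaling (-0.32, adjusted p = 0.0319) and the fit without pikfyve-delta8 replicate 1 (-0.36, adjusted p = 0.0228).

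The regulatory chain gene myl2a, whose mammalian counterpart serves ventricle and slow muscle, stood at 22.3, 14.4 and 20.3 CPM in the pikfyve-delta8 samples, against 20.7, 18.3 and 19.4 CPM in the wild-type samples. Values overlapped, with pikfyve-delta8 replicate 2 the lowest of all samples (-0.037 ± 0.15, adjusted p = 0.859), and the value was 0.13 without it. Its paralog myl2b, at 3.49 to 6.71 CPM in pikfyve-delta8 and 5.51 to 6.04 CPM in wild type, did not pass (-0.22 ± 0.22, adjusted p = 0.437), except without pikfyve-delta8 replicate 3 (-0.52, adjusted p = 0.0322). Summed over the 4 genes, FPKM was 96.9, 76.0 and 92.2 in the pikfyve-delta8 samples and 116, 103 and 114 in the wild-type samples, without overlap. In such bulk samples fewer cells of a type and less RNA per cell cannot be told apart.

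Among 10 genes other than myosins that were listed as heart markers 2 rose and 1 fell, with a median log2 fold change of 0.13. Their summed level was 99.0 to 107 CPM in pikfyve-delta8 and 102 to 108 CPM in wild type, with overlap. The natriuretic peptide gene nppb rose by 2.42 ± 0.30 (adjusted p = 0.000162) and the ryanodine receptor gene ryr2a fell by 0.93 on the log2 scale (SE 0.12, adjusted p = 0.000199). In wild type ryr2a was the largest part of the sum, with a mean of 34.7 CPM, against 18.2 CPM in pikfyve-delta8. The overlap of the sums rests on ryr2a, since the other markers together were higher in every pikfyve-delta8 sample. Whether ryr2a marks heart muscle in these samples was not tested, so its fall cannot be read as that of a heart marker. The troponin gene tnnt2a, a defining marker of heart muscle, was at 0.21 ± 0.12 (adjusted p = 0.179). Of the 10, 2 rose and 2 fell with library size alone, where the median was -0.016.

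None of the 3 sarcomeric heavy chain genes with no fiber type assigned here passed edgeR's test. The gene myhb stood at 277, 187 and 262 CPM in the pikfyve-delta8 samples, against 263, 262 and 272 CPM in the wild-type samples. Replicate 2 of pikfyve-delta8 was lowest, the other samples lay together, and the log2 fold change was -0.13 ± 0.13 (adjusted p = 0.424). For myh7bb the levels were 53.6, 39.1 and 59.2 CPM in the pikfyve-delta8 samples, against 58.9, 54.5 and 55.7 CPM in the wild-type samples, with the same replicate lowest (-0.15 ± 0.13, adjusted p = 0.376). Without that replicate both values turned slightly positive, at 0.021 for myhb and 0.0025 for myh7bb. The paralog myh7ba was at 5.10 to 8.08 CPM in pikfyve-delta8 and 7.00 to 10.04 CPM in wild type (-0.43 ± 0.21, adjusted p = 0.116). It passed as lower without pikfyve-delta8 replicate 3 (-0.69, adjusted p = 0.00900).

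Of the 6 smooth and non-muscle heavy chain genes 2 rose and 1 fell. The gene myh9b, a non-muscle myosin heavy chain of the kind found in migrating and epithelial cells, stood at 255, 258 and 265 CPM in the pikfyve-delta8 samples, against 174, 185 and 189 CPM in the wild-type samples. It rose by 0.51 ± 0.07 (adjusted p = 0.000301), without overlap, and was past the threshold in all 17 alternatives that held it. Its estimated counts were not whole. The paralog myh9a stood at 193, 198 and 204 CPM in the pikfyve-delta8 samples, against 156, 152 and 163 CPM in the wild-type samples. It rose by 0.34 ± 0.069 (adjusted p = 0.00281), also without overlap, but the call was lost with library size alone (0.20, adjusted p = 0.0513) and on both FPKM scales (adjusted p = 0.0852 and 0.0854).

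The third, myh10, encodes the non-muscle form that is abundant in brain and neurons in mammals. It stood at 147, 128 and 146 CPM in the pikfyve-delta8 samples, against 172, 175 and 168 CPM in the wild-type samples. All pikfyve-delta8 samples lay below all wild-type samples, and myh10 fell by 0.29 on the log2 scale (SE 0.08, adjusted p = 0.0109). At the threshold of 0.05 the call held in 17 of 18 alternatives but not without wild type replicate 2 (adjusted p = 0.0509), and it does not pass a threshold of 0.01. The rarer myh14 was at 4.73 to 9.11 CPM in pikfyve-delta8 and 8.97 to 10.3 CPM in wild type and did not pass (-0.54 ± 0.21, adjusted p = 0.0597). Its value was -0.85 without pikfyve-delta8 replicate 3 (adjusted p = 0.00103), and it passed as lower with limma-voom (adjusted p = 0.0410), library size alone (adjusted p = 0.0399) and upper-quartile scaling (adjusted p = 0.0438).

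The smooth muscle heavy chain gene myh11a stood at 94.8, 104 and 83.0 CPM in the pikfyve-delta8 samples, against 95.1, 96.8 and 95.8 CPM in the wild-type samples. The genotypes overlapped, at -0.031 ± 0.087 (adjusted p = 0.793). Its paralog myh11b held 10 to 27 counts per sample in pikfyve-delta8 and 18 to 28 in wild type, with overlap. Of 6 smooth muscle marker genes other than myosins 2 rose and 1 fell, and with library size alone 0 rose and 1 fell. The calls of the 2 that rose, lmod1b and cnn1b, were lost in 14 and 12 alternatives, and 1 of the 6 rose without pikfyve-delta8 replicate 2. Their summed level was 471 to 590.0 CPM in pikfyve-delta8 and 435 to 519 CPM in wild type.

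Of the 5 smooth and non-muscle light chain genes 2 rose and 0 fell, with the same counts under the 4 scalings of counts and medians of 0.15 with TMM and 0.0045 with library size alone. The regulatory chain gene myl9b, found in smooth muscle and other contractile cells, stood at 152, 114 and 154 CPM in the pikfyve-delta8 samples, against 82.3, 87.6 and 84.7 CPM in the wild-type samples. It had the highest log2 fold change of the 36 members, 0.72 ± 0.11 (adjusted p = 0.000608), with no overlap, and the call held in all 18 alternatives. The widely expressed regulatory chain gene myl12.1 stood at 395, 378 and 358 CPM in the pikfyve-delta8 samples, against 306, 302 and 300.2 CPM in the wild-type samples. It rose by 0.32 ± 0.071 (adjusted p = 0.00489), again without overlap and past the threshold in all 18 alternatives.

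The remaining light chains of this class did not pass. Levels of myl9a, the paralog of myl9b, were 63.5, 54.8 and 52.9 CPM in the pikfyve-delta8 samples, against 52.7, 57.0 and 52.5 CPM in the wild-type samples, with overlap (0.077 ± 0.087, adjusted p = 0.487). Its value was -0.067 with library size alone. Levels of myl12.2 were 34.7, 33.1 and 33.1 CPM in the pikfyve-delta8 samples, against 32.5, 38.2 and 34.8 CPM in the wild-type samples (-0.064 ± 0.085, adjusted p = 0.561). The essential chain gene myl6, which partners non-muscle heavy chains, stood at 49.0, 45.7 and 41.7 CPM in the pikfyve-delta8 samples, against 40.2, 39.8 and 43.0 CPM in the wild-type samples. Its genotypes overlapped as well (0.15 ± 0.083, adjusted p = 0.163), and it passed as higher without pikfyve-delta8 replicate 3 (adjusted p = 0.0463). For myl12.2 the call was lower on both FPKM scales (adjusted p = 0.0434 and 0.0433). The 5 genes summed to 605, 544 and 578 FPKM in the pikfyve-delta8 samples, against 538, 534 and 531 FPKM in the wild-type samples, without overlap. In TPM the same sums overlapped, at 634 to 697 in pikfyve-delta8 and 630.0 to 636 in wild type.

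Markers of other cell types went in both directions. All 4 neutrophil markers (mpx, lyz, ncf1 and mmp13a) rose, and their summed level was 270.1 to 469 CPM in pikfyve-delta8 and 31.1 to 34.8 CPM in wild type. Most of the pikfyve-delta8 sum is mmp13a (mean 178 CPM, against 5.28 CPM in wild type) and mpx (147 CPM, against 9.79 CPM). For lyz the means were 39.6 and 11.8 CPM. The call of ncf1 was lost in 5 alternatives (adjusted p up to 0.0887). Of 3 macrophage markers 0 rose and 2 fell, with a summed level of 10.1 to 18.6 CPM in pikfyve-delta8 and 20.4 to 21.9 CPM in wild type. Of those that fell, marco lost its call in 3 alternatives (adjusted p up to 0.102). The remaining marker, csf1ra, did not pass (0.36 ± 0.21, adjusted p = 0.192). Of 4 epidermal markers the adhesion genes epcam and cdh1 rose and the keratin gene krt4 fell. The sum of the 4 was 6122 to 8914 CPM in pikfyve-delta8 and 11065 to 12867 CPM in wild type. Most of that sum is krt4 and krt5, and krt5 did not pass (-0.29 ± 0.22, adjusted p = 0.302). The median log2 fold change of the 4 was 0.47, although their sum was lower. Of 3 red blood cell markers 1 rose and 1 fell, with a sum of 352 to 509 CPM in pikfyve-delta8 and 698 to 833 CPM in wild type. The lower sum rests on hbbe1.2, with a mean of 50.2 CPM in pikfyve-delta8 and 393 CPM in wild type (-2.97 ± 0.16, adjusted p = 3.67e-06). The gene hbae1.1 rose (2.04 ± 0.48, adjusted p = 0.0168), a call lost in 2 alternatives. The third, hbbe1.1, did not pass (-0.063 ± 0.12, adjusted p = 0.703). Estimated counts of these globin genes were not whole. The part of these cells in the myosin differences was not tested.

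**Figure D3:**
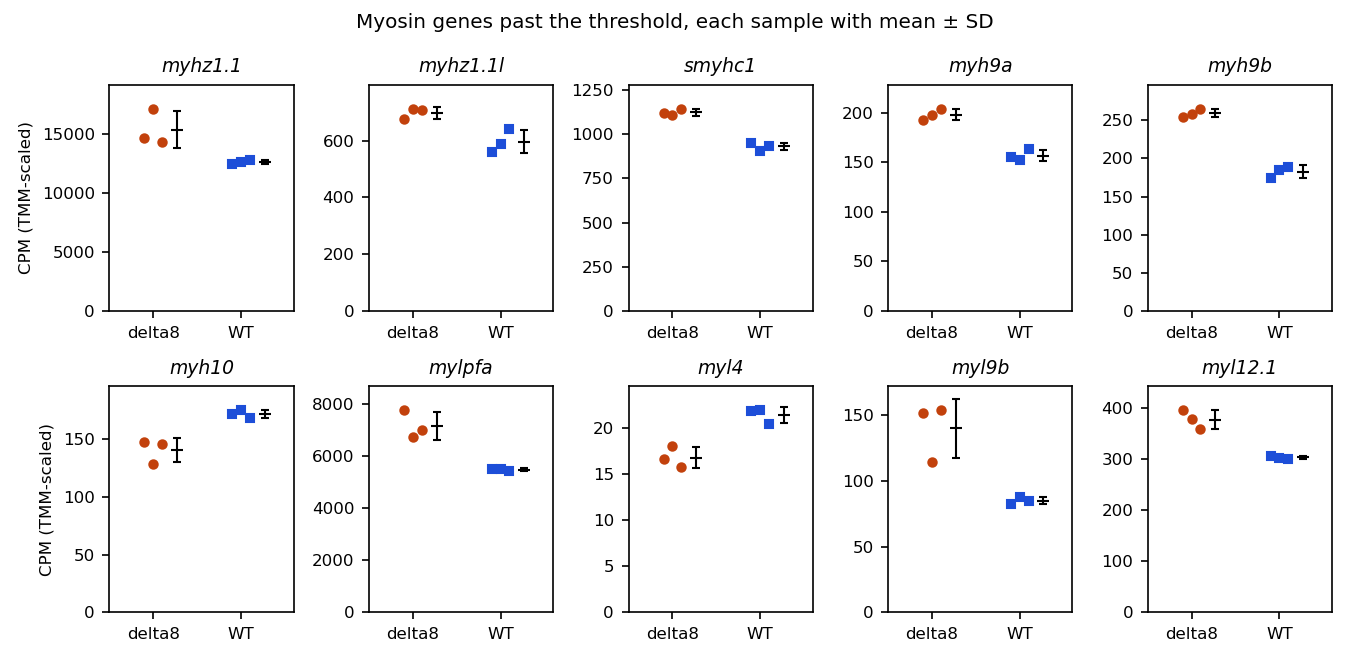
TMM-scaled CPM (y, from 0) in each pikfyve-delta8 sample (circles, delta8) and each wild-type sample (squares, WT) for the 10 myosin genes past the threshold; bars are mean ± SD (n = 3 each). In every panel the genotypes are apart, with myh10 and myl4 lower and the other 8 higher in pikfyve-delta8.

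**Figure D4:**
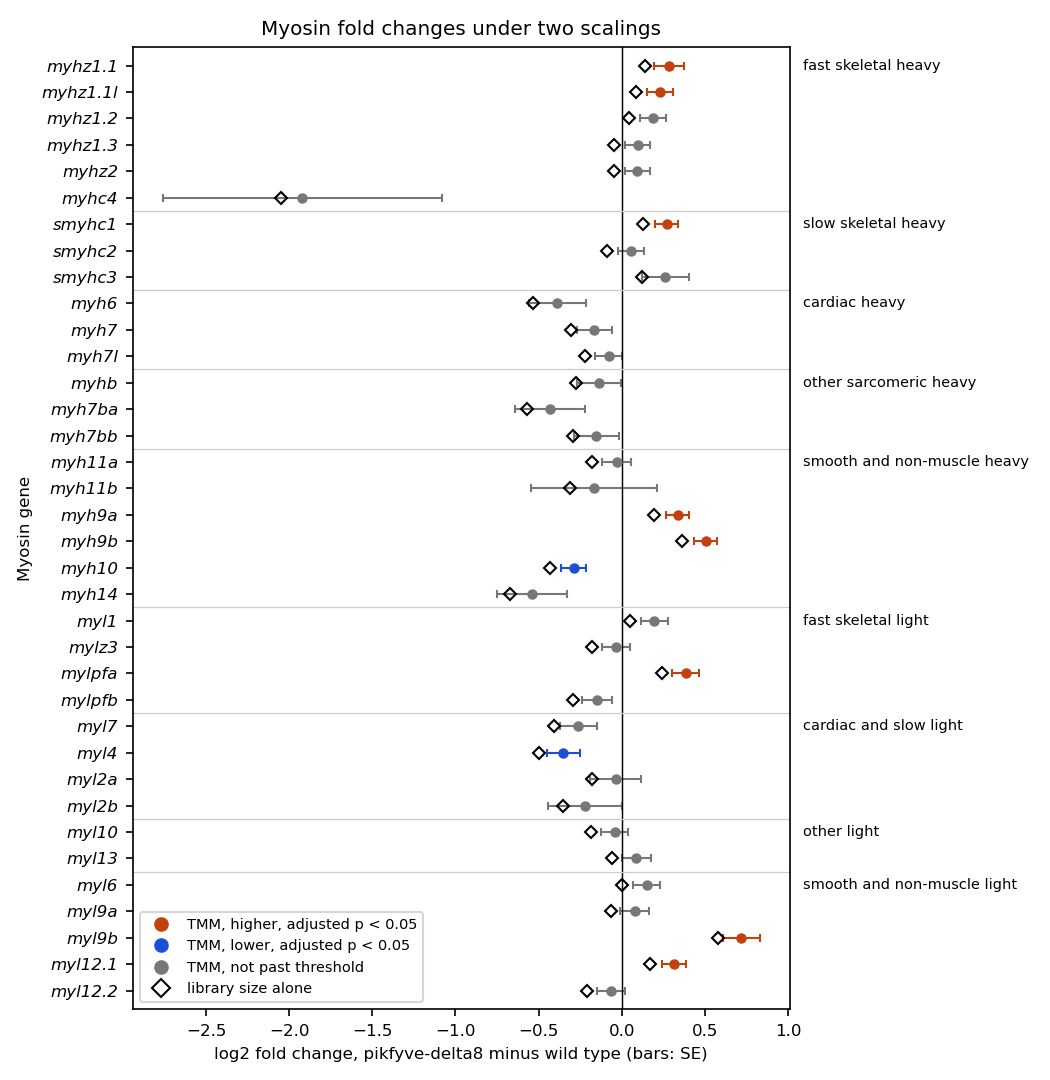
Log2 fold change (x, pikfyve-delta8 minus wild type) of the 36 myosin genes (y, by class), with TMM scaling as filled points with SE bars and with library size alone as open diamonds. Each diamond lies to the left of its point, and diamonds of myhz1.3, myhz2, smyhc2, myl13 and myl9a are on the other side of 0.

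Ratios between genes of one sample do not depend on the scaling between samples. The 8 pairs compared here were chosen after their levels had been seen, so they are described without a test. The ratio of mylpfa to mylpfb in FPKM was 4.12, 3.80 and 4.38 in the pikfyve-delta8 samples, against 2.73, 2.71 and 3.07 in the wild-type samples. Of the FPKM of both genes mylpfa thus held 80.3 ± 1.14% in pikfyve-delta8 and 73.9 ± 1.33% in wild type (SD, n = 3 each). The ratio of myl1 to mylz3 was 0.277, 0.245 and 0.261 in pikfyve-delta8, against 0.231, 0.207 and 0.231 in wild type. Neither ratio overlapped between the genotypes.

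Among heavy chains, myhz1.1 to myhz2 was 3.04, 3.38 and 2.72 in pikfyve-delta8, against 2.69, 2.67 and 2.65 in wild type. For smyhc1 to smyhc2 it was 5.11, 5.91 and 5.35 in pikfyve-delta8, against 4.93, 4.47 and 4.62 in wild type. Both rest on divided reads. The ratio of myh9b to myh10 was 2.37, 2.78 and 2.42 in pikfyve-delta8, against 1.38, 1.44 and 1.54 in wild type. Of the FPKM of myh9a, myh9b, myh10 and myh14 together, myh10 held 19.9 ± 1.35% in pikfyve-delta8 and 28.9 ± 1.016% in wild type (SD, n = 3 each). For myh9a to myh10 the ratio was 1.38, 1.64 and 1.44 in pikfyve-delta8, against 0.959, 0.908 and 1.03 in wild type.

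Among non-muscle light chains, myl9b to myl9a was 0.546, 0.479 and 0.664 in pikfyve-delta8, against 0.355, 0.353 and 0.370 in wild type. The ratio of myl12.1 to myl12.2 was 6.36, 6.39 and 6.05 in pikfyve-delta8, against 5.27, 4.44 and 4.83 in wild type. In all 8 pairs the genotypes were apart. The mean log2 ratio differed by 0.19 for myhz1.1 to myhz2 up to 0.79 for myh9b to myh10. Each pair sets the gene with the higher log2 fold change over the other, so the shared direction follows from the choice.

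**Figure D5:**
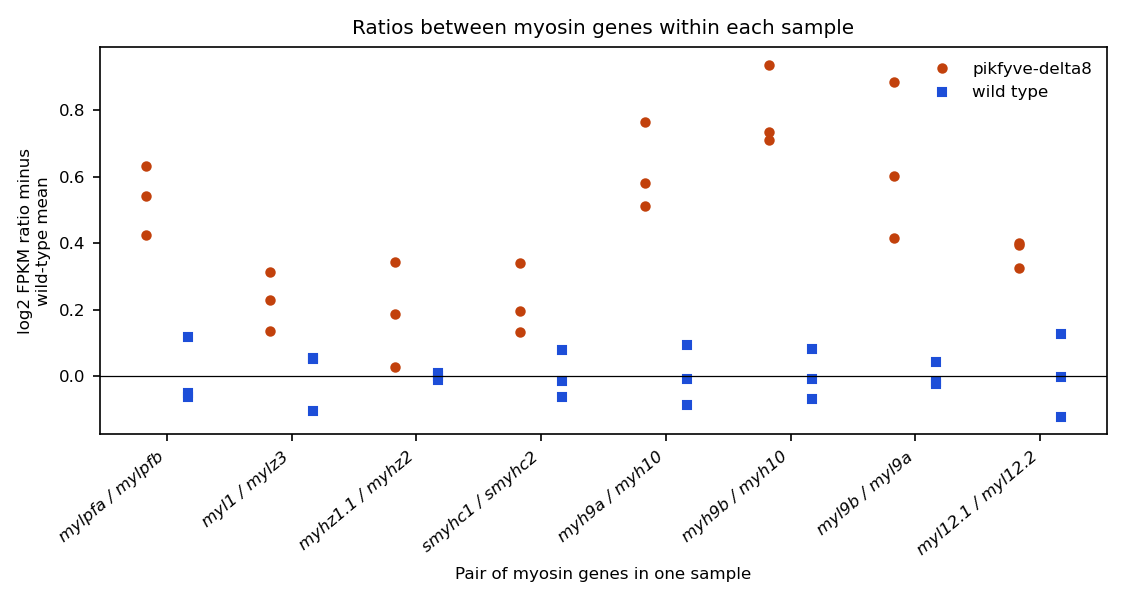
Log2 of the FPKM ratio of paired myosin genes within each sample, minus its wild-type mean (y), for 8 pairs (x); circles are pikfyve-delta8 samples and squares wild-type samples. All circles of a pair lie above all its squares, most closely for myhz1.1 to myhz2.

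Replicates of the mutant differed more among themselves. The coefficient of variation of CPM had a median of 8.27% in pikfyve-delta8 and 4.36% in wild type over the 36 members, and was larger in pikfyve-delta8 for 27 of them (75.0%). Over all tested genes it was 13.1% in pikfyve-delta8 and 7.06% in wild type, and larger in pikfyve-delta8 for 75.2%. Replicate 2 of pikfyve-delta8 was the lowest of its genotype for 11 of 25 sarcomeric members, replicate 3 for 9 and replicate 1 for 5. Replicate 2 was also the highest for 7 of the 25. Among all 36 members replicates 2 and 3 were each lowest for 14 and replicate 1 for 8. Among all 21104 tested genes replicate 2 was lowest for 6537, replicate 3 for 7573 and replicate 1 for 6994.

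The partners of myosin in the thick filament went both ways. Of 17 tested genes 5 rose and 3 fell, with a median of -0.038. Over all tested genes 25.1% rose and 23.0% fell, and with library size alone 18.1% and 31.1%. These are the shares to set beside each list count in the text. The giant titin gene ttn.1, a ruler of the sarcomere, rose by 0.51 ± 0.088 (adjusted p = 0.00117) and the myosin-binding protein H gene mybphb by 0.42 ± 0.09 (adjusted p = 0.00382). The obscurin-like genes obsl1a and obsl1b fell by 1.15 (SE 0.12, adjusted p = 5.62e-05) and 0.38 (SE 0.10, adjusted p = 0.00955) on the log2 scale, and obsl1b lost its call without wild type replicate 1 (adjusted p = 0.0558). Under library size alone 4 rose and 6 fell, and without pikfyve-delta8 replicate 2 the median was 0.025.

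Of 18 genes of myosin folding and turnover 4 rose and 2 fell, with a median of 0.24. The sarcomere-associated ubiquitin ligase gene trim55b rose by 1.55 ± 0.13 (adjusted p = 1.52e-05) and the chaperonin subunit gene cct2 by 0.54 ± 0.083 (adjusted p = 0.000603). The methyltransferase genes smyd2a and smyd2b fell by 0.36 (SE 0.09, adjusted p = 0.0101) and 0.63 (SE 0.15, adjusted p = 0.00828). The dedicated myosin chaperone gene unc45b stood at 20.8, 64.6 and 25.7 CPM in the pikfyve-delta8 samples, against 38.5, 37.6 and 39.0 CPM in the wild-type samples. Replicate 2 of pikfyve-delta8 was the highest of all samples and the other pikfyve-delta8 samples were the lowest, at -0.054 ± 0.46 (adjusted p = 0.936). The same replicate was the highest for hsp90aa1.2, which encodes an Hsp90 chaperone, at 120.3, 1498 and 199 CPM in the pikfyve-delta8 samples, against 58.6, 61.7 and 56.6 CPM in the wild-type samples (3.36 ± 1.18, adjusted p = 0.0770), and for hsp90aa1.1, ahsa1a, ahsa1b and stip1. Without that replicate 4 of the 18 genes rose and 5 fell, with a median of 0.066. The methyltransferase gene smyd1b was at -0.36 ± 0.17 (adjusted p = 0.108). Scaled by library size alone, 2 of the 18 rose and 4 fell.

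Of 18 genes listed for light chain phosphorylation, among them calmodulin genes and camk2a, 6 rose and 3 fell, with a median of 0.081. The phosphatase catalytic subunit gene ppp1cb rose by 0.37 ± 0.067 (adjusted p = 0.00148) and the kinase gene mylk5 by 0.41 ± 0.081 (adjusted p = 0.00245). The calmodulin genes calm1a and calm1b, whose product activates light chain kinases, fell by 0.39 (SE 0.08, adjusted p = 0.00244) and 0.35 (SE 0.08, adjusted p = 0.00634). The third that fell was the kinase gene camk2a, by 1.09 (SE 0.35, adjusted p = 0.0322), a call lost in 5 alternatives. With TMM scaling none of the mylk or phosphatase subunit genes in the list fell. Scaled by library size alone, 3 of the 18 rose and 4 fell.

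Of 22 myogenic regulators 2 rose and 4 fell, with a median of -0.033. The slow fiber regulator gene prdm1a rose by 1.28 ± 0.10 (adjusted p = 1.2e-05). The muscle stem cell gene pax7b rose by 0.52 ± 0.11 (adjusted p = 0.00298). The paralog pax7a went the other way and fell by 0.57 on the log2 scale (SE 0.16, adjusted p = 0.0142). With wild type replicate 1 left out, pax7a did not pass (adjusted p = 0.0567). The myostatin gene mstnb fell by 0.87 (SE 0.19, adjusted p = 0.00402) and the transcription factor gene mef2ca by 0.64 (SE 0.16, adjusted p = 0.0116). The muscle master regulator gene myod1 was at -0.044 ± 0.19 (adjusted p = 0.867) and myog at -0.13 ± 0.12 (adjusted p = 0.389). Under library size alone 2 rose and 7 fell.

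The actin-based thin filament list gave 10 of 45 genes higher and 6 lower, with a median of -6.85e-05. The troponin T gene tnnt2c rose by 1.33 ± 0.17 (adjusted p = 0.000194) and the tropomyosin gene tpm4a by 0.43 ± 0.074 (adjusted p = 0.00110). The troponin I gene tnni1c fell by 0.55 (SE 0.12, adjusted p = 0.00401) and the skeletal actin gene acta1b by 0.47 (SE 0.11, adjusted p = 0.00695). Other actin genes rose, namely acta1a (0.33 ± 0.096, adjusted p = 0.0186), actc1b (0.29 ± 0.10, adjusted p = 0.0336) and actc1c (0.37 ± 0.10, adjusted p = 0.0155). Their calls were lost in 6, 9 and 3 alternatives, and actc1a and acta2 did not pass. With library size alone 5 of the 45 genes rose and 13 fell. Unconventional myosins, which do not build the thick filament, gave 10 genes that rose and 9 that fell of 32. Over all tested genes 25.1% rose and 23.0% fell.

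The class I genes myo1eb and myo1f rose by 0.78 ± 0.074 (adjusted p = 3.65e-05) and 2.02 ± 0.20 (adjusted p = 4.51e-05). The vesicle transport gene myo5ab fell by 1.09 (SE 0.20, adjusted p = 0.00166) and the sensory cell gene myo3a by 0.99 (SE 0.19, adjusted p = 0.00181). Scaled by library size alone, 4 of the 32 rose and 13 fell.

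Markers of fast fibers other than myosins, which the samples held at high levels, summed to 48474 to 53849 CPM in pikfyve-delta8 and 42850 to 48911 CPM in wild type, with overlap. Of 12 tested 3 rose and 2 fell, with a median of 0.041, and with library size alone 1 rose and 4 fell. The calcium pump gene atp2a1 rose by 0.48 ± 0.091 (adjusted p = 0.00185). The other fast markers that rose were ckma (0.31 ± 0.094, adjusted p = 0.0201) and actc1b (0.29 ± 0.10, adjusted p = 0.0336). Those that fell were acta1b (-0.47 ± 0.11, adjusted p = 0.00695) and casq1a (-0.45 ± 0.15, adjusted p = 0.0319). The calls of ckma, actc1b and casq1a were lost in 8, 9 and 4 alternatives. Of 5 slow fiber markers 1 rose and 0 fell, the calcium pump gene atp2a2b at 0.62 ± 0.078 (adjusted p = 0.000179), and the median was -0.17, on the other side of 0 from the sum. With library size alone 1 slow marker rose and 2 fell. The summed slow markers were at 660.0 to 719 CPM in pikfyve-delta8 and 586 to 602 CPM in wild type, without overlap. Most of that sum is tpm2 (0.20 ± 0.085, adjusted p = 0.0708) and atp2a2b, while prox1a (-0.18 ± 0.082), tnnc1b (-0.17 ± 0.086) and tnnt1 (-0.25 ± 0.15) did not pass. Without pikfyve-delta8 replicate 2, 1 fast marker and 2 slow markers rose.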

How the data were processed

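RNA sequencing covered 3 pikfyve-delta8 and 3 wild-type samples, grouped and numbered by their titles. Per the submitters' processing notes, Bowtie2, RSEM 1.3.1, DESeq2 1.4.5 and the build GRCz11 were used, with no order or settings given. The deposited table holds estimated counts per gene, not all whole (tolerance 0.005). The deposited TPM values sum to 1000000 in each sample and served one alternative for summed levels. The deposited FPKM values are fragments per kilobase of transcript and sequencing depth. The authors' group averages were not used, and 0 columns came from outside the series. No source used here gives the strandedness, so antisense reads cannot be told apart.

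Members were matched by symbol, and all 36 identifiers were found in the RefSeq annotation of GRCz12tu, used only for names and neighbours. Members, gene lists and tests were chosen with earlier results of these data known. Estimated counts were rounded and tested with edgeR 4.0.16 (R 4.3.3) after filterByExpr, with TMM scaling, a robust quasi-likelihood F-test for genotype, two-sided, and Benjamini-Hochberg adjustment at 0.05. SE is the log2 fold change over the square root of F. A floor of 3 counts was 0.191 to 0.218 CPM, and covers counting error only. Named partner genes are up to 4 per list with the smallest p, 2 per direction where both exist, and other genes named in the text were chosen after their values were seen. Alternatives were other scalings, filters, tests (DESeq2 1.42.0, limma 3.58.1), FPKM in place of counts, genes with whole counts only, a replicate block, a threshold of 0.01 and each sample left out; the tallies of alternatives per gene are all at 0.05. List counts without pikfyve-delta8 replicate 2 were added after seeing the data. The fit was tested on simulated counts, where changes somewhat larger than the members' median size mostly went uncalled. Far fewer genes were changed there than were called in these data, which makes the adjusted threshold stricter. That result therefore does not give the power of the fit here. A gene that does not pass is still not shown to be level. Every pair of samples differed beyond counting noise (mean chi-square per gene at least 2.32, where noise alone gives about 1). Figures used matplotlib 3.10.9. Sequences are not analysed here.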

Additional observations from a re-analysis of the deposited data

How the results depend on the processing

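Scaling and single samples limit these results. The number of members that rose was 4 and the number that fell 8 with library size alone. They were 4 and 6 with log2(FPKM + 1) and with log2(FPKM + 0.1), and 6 and 5 with upper-quartile scaling. Of all tested genes, 18.1% were higher and 31.1% lower with library size alone, and 22.0% and 26.5% with upper-quartile scaling. These shares were 18.8% and 33.0% with log2(FPKM + 1), and 18.8% and 32.6% with log2(FPKM + 0.1). limma-voom gave 4 lower members, a threshold of 0.01 gave 0 lower, and genes with whole counts only gave 4 higher, since 12 members were then not tested. Of all tested genes, 24.0% were lower with limma-voom, 14.8% were lower at 0.01, and 25.3% were higher with whole counts only. DESeq2 gave 2 lower members at 0.05, and edgeR had 15 of 36 members in either direction at an unadjusted p under 0.05. The share of all tested genes at that unadjusted limit was not tallied. It cannot be below the 48.0% that passed at an adjusted p under 0.05, so the 15 are no excess over all genes. Leaving out each sample gave 5 to 11 higher and 0 to 6 lower members, with 0 lower without wild type replicate 2 and 6 lower without pikfyve-delta8 replicate 3. Of all tested genes 19.3% to 25.7% were then higher and 16.9% to 25.7% lower. The lower share was 17.3% without wild type replicate 2 and 25.7% without pikfyve-delta8 replicate 3. DESeq2 and RLE scaling also gave 8 higher and 2 lower, where the all-gene shares were 18.0% and 16.5% with DESeq2, and 24.6% and 23.4% with RLE scaling. Genes differing between genotypes numbered 10140, and 6847 to 10982 under the alternatives.

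Members that changed sign, none of them past the threshold, were with library size alone myhz1.3 (-0.047), myhz2 (-0.048), smyhc2 (-0.086), myl13 (-0.055) and myl9a (-0.067). With log2(FPKM + 1) they were myhz1.3 (-0.047), myhz2 (-0.047), smyhc2 (-0.089), myl13 (-0.059) and myl9a (-0.070), with log2(FPKM + 0.1) myhz1.3 (-0.047), myhz2 (-0.047), smyhc2 (-0.091), myl13 (-0.059) and myl9a (-0.071), and with upper-quartile scaling smyhc2 (-0.0077). Leaving out samples, values that crossed 0 ranged from -0.63 to 0.11 for myh11b, -0.0069 to 0.11 for myl9a, -0.24 to 0.021 for myhb, -0.30 to 0.0025 for myh7bb, -0.17 to 0.13 for myl2a, -0.11 to 0.037 for myh11a, -0.075 to 0.024 for mylz3 and -0.095 to 0.011 for myl10. In place of FPKM, TMM-scaled CPM moved the log2 ratio of summed levels to 0.21 for fast heavy, 0.24 for slow heavy, -0.15 for cardiac heavy, 0.18 for smooth and non-muscle heavy, 0.21 for fast light, 0.028 for other light and 0.33 for smooth and non-muscle light chains. FPKM divides by transcript length and TMM-scaled CPM does not, so these units differ in the weight of each gene as well as in scaling. The part of each in these shifts was not tested. The replicate number as a replicate block gave 8 higher and 2 lower members, against 23.5% and 21.8% of all tested genes. Same-numbered samples had deviations correlated at -0.075, 0.050 and -0.048, and differently numbered ones at -0.097 to 0.14. With 3 samples per genotype these correlations cannot decide whether the numbers pair the samples, and the labels do not say.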
